A study of Mus musculus with 19 samples.

Results

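Interferon-stimulated genes are the genes that cells switch on when an interferon binds its receptor. The 41 members described here were chosen by gene symbol from the expression table of epididymal white adipose tissue (eWAT), the fat pad beside the epididymis, and all 41 were found among the 24237 genes used. Male C57Bl6/J mice were fed for 17 weeks on 1 of 4 diets, low or high in fat and normal or low in magnesium, which gave 4 NormMg-LFD mice and 5 mice in each of the groups LowMg-LFD, NormMg-HFD and LowMg-HFD. RNA was sequenced in each of the 19 mice, with 12986441 to 13027028 reads per mouse, of which 86.12% to 90.41% were mapped. Expression is given as FPKM, fragments scaled by transcript length and by the mapped reads of the library. The NormMg-LFD mice are the control for both dietary changes, the labels give no genetic change or drug in any group, and each mouse is 1 library of the whole fat pad.

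Type I interferons signal through a receptor pair and the kinases JAK1 and TYK2 to transcription factors, IRF9 among them, that bind the interferon-stimulated response element (ISRE). Interferon gamma signals through its own receptor, and its response runs through the gamma-activated site (GAS). The induced proteins sense foreign RNA and DNA, degrade or sequester viral RNA, modify proteins and disrupt the vacuoles of intracellular pathogens. In adipose tissue many of these genes are carried by macrophages as well as by fat cells, and some, such as Irf8, have roles outside the interferon response.

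The promoters show which members carry these elements. RefSeq promoter sequences (GRCm38.p6, from 250 bases before to 50 after the annotated start) matched 31 of the 41 members by symbol. The ISRE core was searched on both strands as GAAANNGAAA and the GAS as TTCNNNGAA, which reads the same on both strands, and matches of the ISRE core may overlap each other and the GAS. An ISRE core stood in the promoters of 17 of the 31 members (54.8%), against 3.99% of all 27025 genes and 3.44% of all 32851 promoters of this length. A GAS match stood in 11 of the 31 (35.5%), against 9.55% of all genes and 8.3% of all promoters, and 5 members held both. A match of these letters is a description of the sequence and not a measured binding site.

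**Figure D1:**
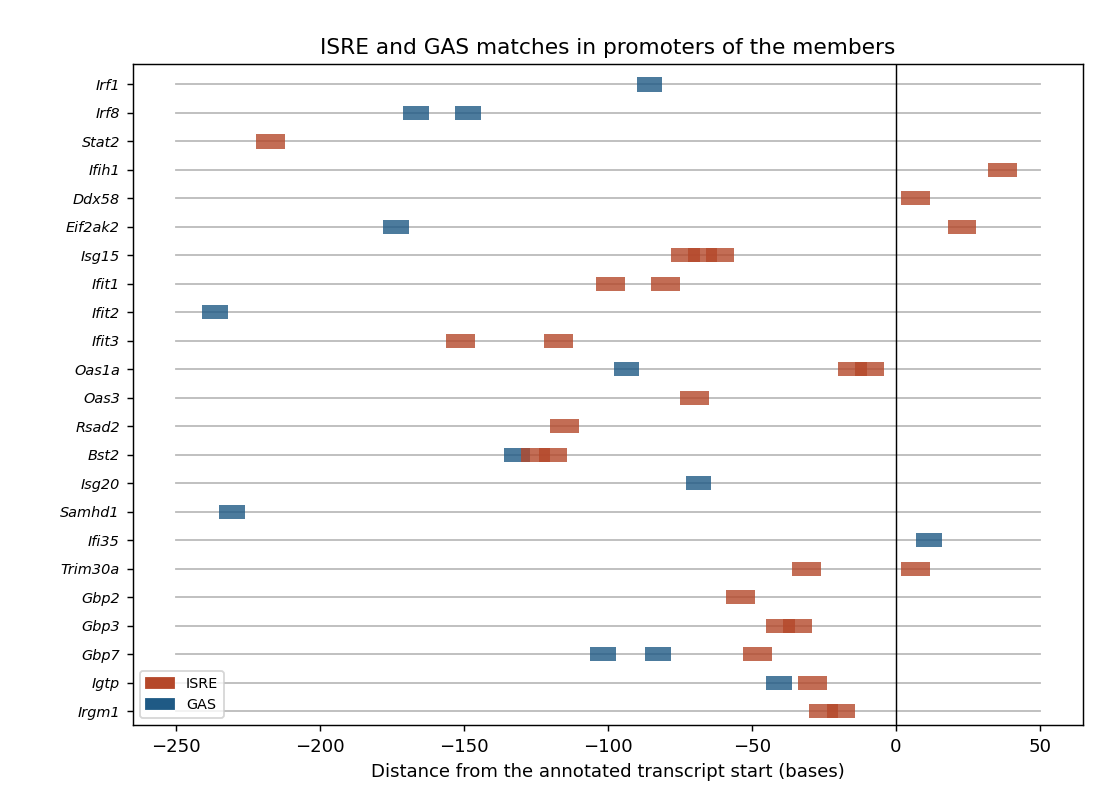
Matches of the ISRE core (red) and the GAS (blue) along the promoters of the 23 members that held either, with distance from the annotated transcript start in bases on the x axis and 1 gene per line. Most matches lie within 200 bases before the start, and those of Ifih1, Ddx58 and Ifi35, the ISRE core of Eif2ak2 and 1 of 2 in Trim30a lie after it.

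The 200 bases before the start are shown for 5 members that gave different results in the comparisons below, with matches in capitals. Isg15 (chr4:156200819-156201018, minus strand), Oas1a (chr5:120907526-120907725, minus strand) and Bst2 (chr8:71537473-71537672, minus strand) carry overlapping ISRE cores, and Oas1a and Bst2 also carry a GAS match. Irf1 (chr11:53769814-53770013, plus strand) and Irf8 (chr8:120736158-120736357, plus strand) carry GAS matches and no ISRE core. All are written 5′ to 3′ on the strand of the gene, in GRCm38.p6.
Isg15: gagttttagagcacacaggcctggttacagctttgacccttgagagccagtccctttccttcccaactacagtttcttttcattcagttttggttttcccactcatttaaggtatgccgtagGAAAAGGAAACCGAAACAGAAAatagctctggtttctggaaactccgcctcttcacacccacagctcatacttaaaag
Oas1a: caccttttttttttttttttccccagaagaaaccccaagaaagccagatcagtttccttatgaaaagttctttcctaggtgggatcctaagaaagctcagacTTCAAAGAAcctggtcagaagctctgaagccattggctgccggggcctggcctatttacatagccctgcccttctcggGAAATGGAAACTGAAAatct
Bst2: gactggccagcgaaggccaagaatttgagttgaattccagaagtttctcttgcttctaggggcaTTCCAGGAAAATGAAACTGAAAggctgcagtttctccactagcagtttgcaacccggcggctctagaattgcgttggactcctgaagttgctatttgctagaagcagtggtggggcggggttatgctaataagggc
Irf1: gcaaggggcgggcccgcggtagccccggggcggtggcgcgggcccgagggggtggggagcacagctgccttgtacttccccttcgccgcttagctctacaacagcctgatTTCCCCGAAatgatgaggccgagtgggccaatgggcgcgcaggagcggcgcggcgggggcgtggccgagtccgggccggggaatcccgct
Irf8: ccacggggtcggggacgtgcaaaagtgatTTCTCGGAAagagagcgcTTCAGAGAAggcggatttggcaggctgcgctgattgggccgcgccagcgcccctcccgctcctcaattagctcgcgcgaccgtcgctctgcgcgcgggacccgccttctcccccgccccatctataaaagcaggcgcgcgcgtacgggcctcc

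A pair of libraries stood apart before any comparison. The library labelled NormMg-LFD replicate 3 had a summed FPKM of 1707 over 12 exocrine pancreas markers, against 1.36 to 3.79 in the other 18 mice, and the library labelled LowMg-LFD replicate 4 had 121.7 over 5 epididymis markers, against 0 to 3.84 elsewhere. In the study a LowMg-HFD sample was left out for pancreatic tissue, and the labels do not say which. The LowMg-HFD mice lay between 1.5 and 2.74 on the pancreas list, so the group of the library labelled NormMg-LFD replicate 3 may be in doubt, and with it the NormMg-LFD values that include it. Its macrophage marker sum of 498.7 FPKM and its Irf8 of 5.85 FPKM lay below those of every LowMg-HFD mouse, whose lowest values were 590.2 and 9.94 FPKM. All 19 mice were kept under their labels, and counts without this library are given below. The adipocyte markers Adipoq, Plin1 and Cidec were present in every group, and the 7 adipocyte markers summed to between 11253 and 20034 FPKM.

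Levels of the members ranged widely. The mean over all mice ran from 1.01 FPKM (Oas3) to 53.6 FPKM (Bst2), with a median of 11.2 over the 41 members. The filter used here, after the study's methods, asks for a group whose mean exceeds 8 FPKM, with 4 or more of its mice above that level. The methods do not give the unit of that level, so it is not shown to be the same filter. The filter used here was passed by 27 members, 20 of them in all 4 groups and 7 in 2 or 3 groups. Irf8 passed in the high-fat groups and Rtp4 in LowMg-LFD and NormMg-HFD, so a pass of either is tied to the groups where it was high. The 14 members below the filter were Isg15, Usp18, Ifit1, Ifit2, Dhx58, Zbp1, Oas1a, Oas2, Oas3, Oasl1, Mx1, Mx2, Rsad2 and Ifi44. Just inside lay Gbp7 and Stat2, with means of 7.08 to 9.88 and 8.97 to 10.2 FPKM in the 4 groups. Just outside lay Oas1a, Isg15 and Zbp1, with means of 9.65, 8.87 and 8.62 FPKM in NormMg-HFD but over 8 in only 3 of its 5 mice.

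**Figure D2:**
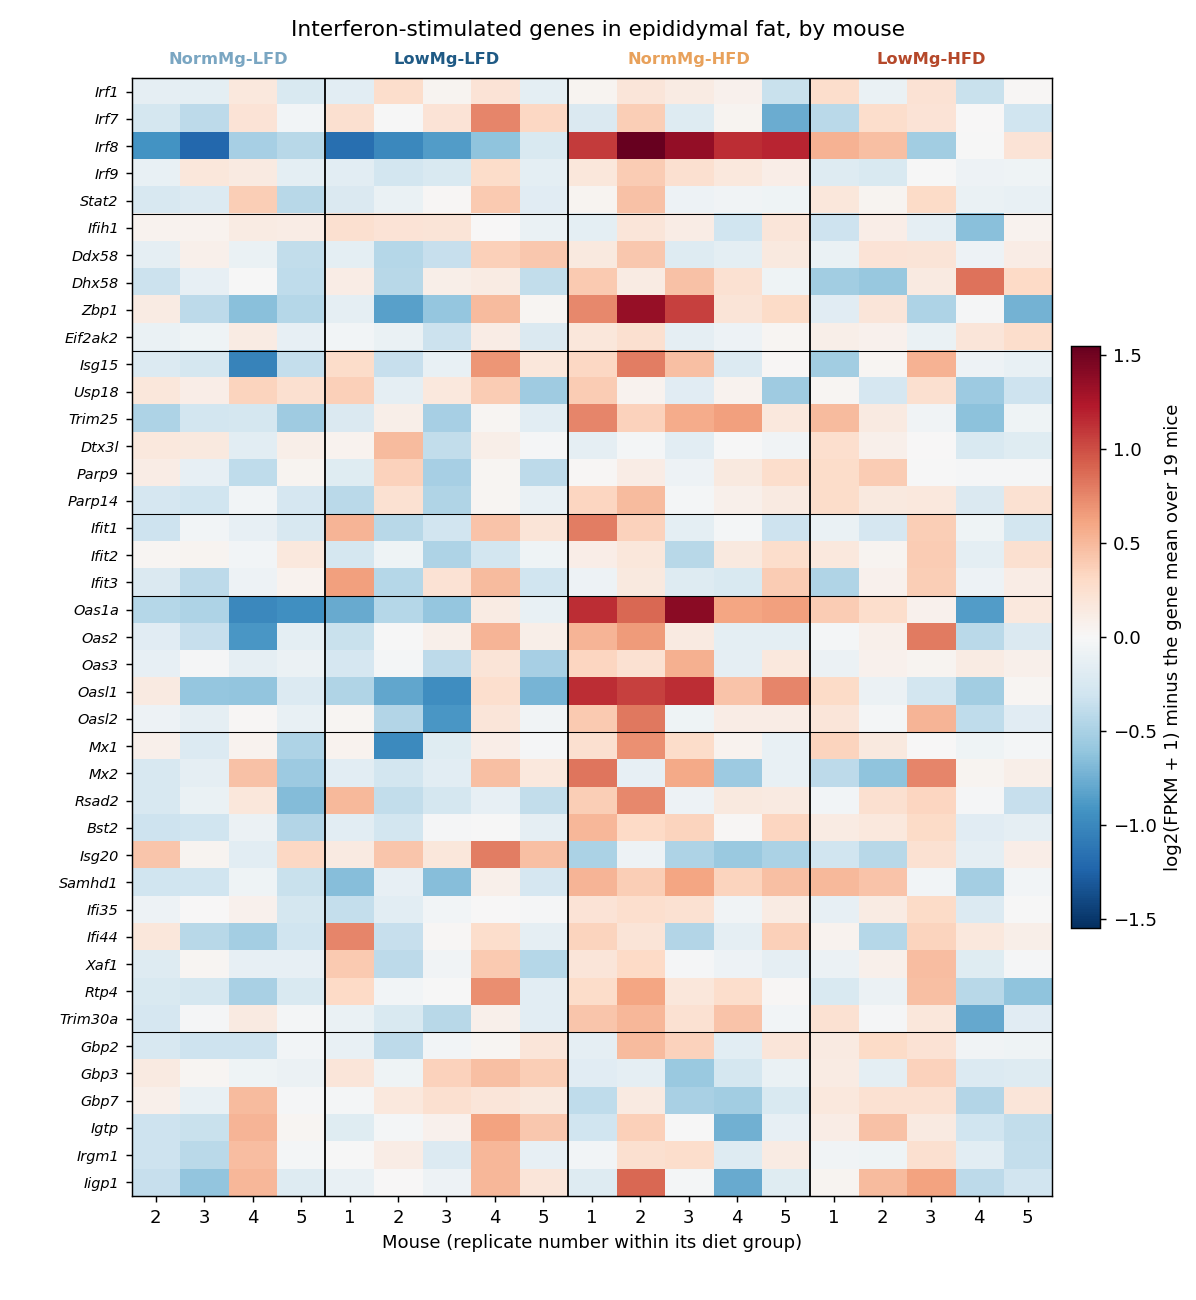
Each row is 1 of the 41 members and each column 1 mouse, with the log2(FPKM + 1) minus the mean of that gene over the 19 mice in colour (red above, blue below) and horizontal lines between role groups. Irf8, Oas1a and Oasl1 are red across all 5 NormMg-HFD mice, whereas rows such as Irf1, Eif2ak2 and Parp9 have group means that lie close together.

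The first question is what a high-fat diet did to these genes at normal magnesium. In NormMg-HFD mice Irf8, Oas1a, Oasl1, Zbp1, Trim25, Samhd1 and Bst2 were higher than in NormMg-LFD (Oas1a, Oasl1 and Zbp1 in a fit with a lower floor, given below), whereas Irf1, Irf7, Stat2, Ifit1, Ifit2, Ifit3, Mx1 and Usp18 did not pass the test. By limma over 8336 genes with Benjamini-Hochberg adjustment, 7 of the 27 members tested were higher and 1 was lower, against 24.6% of all genes tested higher and 12.8% lower. The share of members called higher is close to that of all genes. In whole tissue fewer cells of a type and less RNA per cell cannot be told apart, and the macrophage markers given below were also higher in NormMg-HFD. The median log2 fold change was 0.18 over the members tested and 0.07 over all genes tested. Centring each mouse on its median moved the split from 2048 higher and 1066 lower genes to 1580 and 1572, and that of the members to 4 higher and 2 lower, with the median of all genes at -0.03.

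The transcription factors did not move together. Irf8, a factor that directs the development of macrophages and dendritic cells, lay at 7.37, 5.85, 10.13 and 10.77 FPKM in NormMg-LFD, and at 32.47, 45.35, 39.83, 33.98 and 35.04 FPKM in NormMg-HFD. Every NormMg-HFD mouse was above every NormMg-LFD mouse. Irf8 was higher by 2.03 on the log2 scale (SE 0.22, adjusted p = 1.96e-06 by limma), a ratio of mean FPKM of 4.38, and it passed under all 29 alternatives. Irf1, a factor induced mainly by interferon gamma, lay at 27.67, 27.51, 34.40 and 25.86 FPKM in NormMg-LFD, and at 31.55, 34.85, 33.52, 32.07 and 23.83 FPKM in NormMg-HFD. The groups overlapped, with a log2 fold change of 0.10 (SE 0.14, adjusted p = 0.589 by limma). Irf1 and Irf8 both hold GAS matches in the sequences above, and a link of these matches to the changes was not tested. Irf7, which amplifies the type I response, had a log2 fold change of -0.02 (SE 0.21). Irf9 and Stat2, which encode factors that act at the ISRE, had log2 fold changes of 0.20 and 0.18 and did not pass.

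Among the modifiers, Trim25, a ubiquitin ligase that activates the RNA sensor encoded by Ddx58, lay at 12.09, 13.98, 14.00 and 11.47 FPKM in NormMg-LFD. In NormMg-HFD it lay at 29.76, 22.30, 26.10, 27.26 and 19.42 FPKM, all above the NormMg-LFD mice. Trim25 was higher by 0.89 on the log2 scale (SE 0.18, adjusted p = 0.000566 by limma). Parp14, an ADP-ribosyltransferase, rose by 0.42 on the log2 scale (adjusted p = 0.0325 by limma) and lost the call in 9 of 29 alternatives. Parp9, the modifier with the highest mean FPKM, lay at 23.93, 20.07, 16.57 and 22.86 FPKM in NormMg-LFD and at 22.30, 24.05, 20.83, 24.56 and 26.80 FPKM in NormMg-HFD. The Parp9 groups overlapped (log2 fold change 0.18, SE 0.15). Dtx3l, which pairs with PARP9, had a log2 fold change of -0.13.

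Of the other antiviral effectors, Samhd1, which breaks down the nucleotides needed for reverse transcription, lay at 37.54, 37.48, 44.34 and 36.38 FPKM in NormMg-LFD. It lay at 67.74, 61.01, 71.53, 59.61 and 64.92 FPKM in NormMg-HFD, without overlap (log2 fold change 0.73, SE 0.18, adjusted p = 0.00345 by limma). Bst2, or tetherin, which holds budding virus at the cell surface, lay at 41.96, 42.39, 49.38 and 38.19 FPKM in NormMg-LFD and at 75.50, 65.39, 67.27, 53.21 and 66.67 FPKM in NormMg-HFD. These groups did not overlap either (log2 fold change 0.60, SE 0.11, adjusted p = 0.000361 by limma). Rtp4 rose by 0.58 (adjusted p = 0.0256 by limma), and lost the call in 5 of 29 alternatives. Isg20, an exonuclease of single-stranded RNA, moved the other way. It lay at 15.75, 11.82, 10.16 and 14.58 FPKM in NormMg-LFD and at 7.89, 10.82, 7.94, 7.39 and 7.91 FPKM in NormMg-HFD, where only replicate 2 overlapped the NormMg-LFD range. The log2 fold change of Isg20 was -0.58 (SE 0.16, adjusted p = 0.00951 by limma), and it passed under all 29 alternatives.

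**Figure D3:**
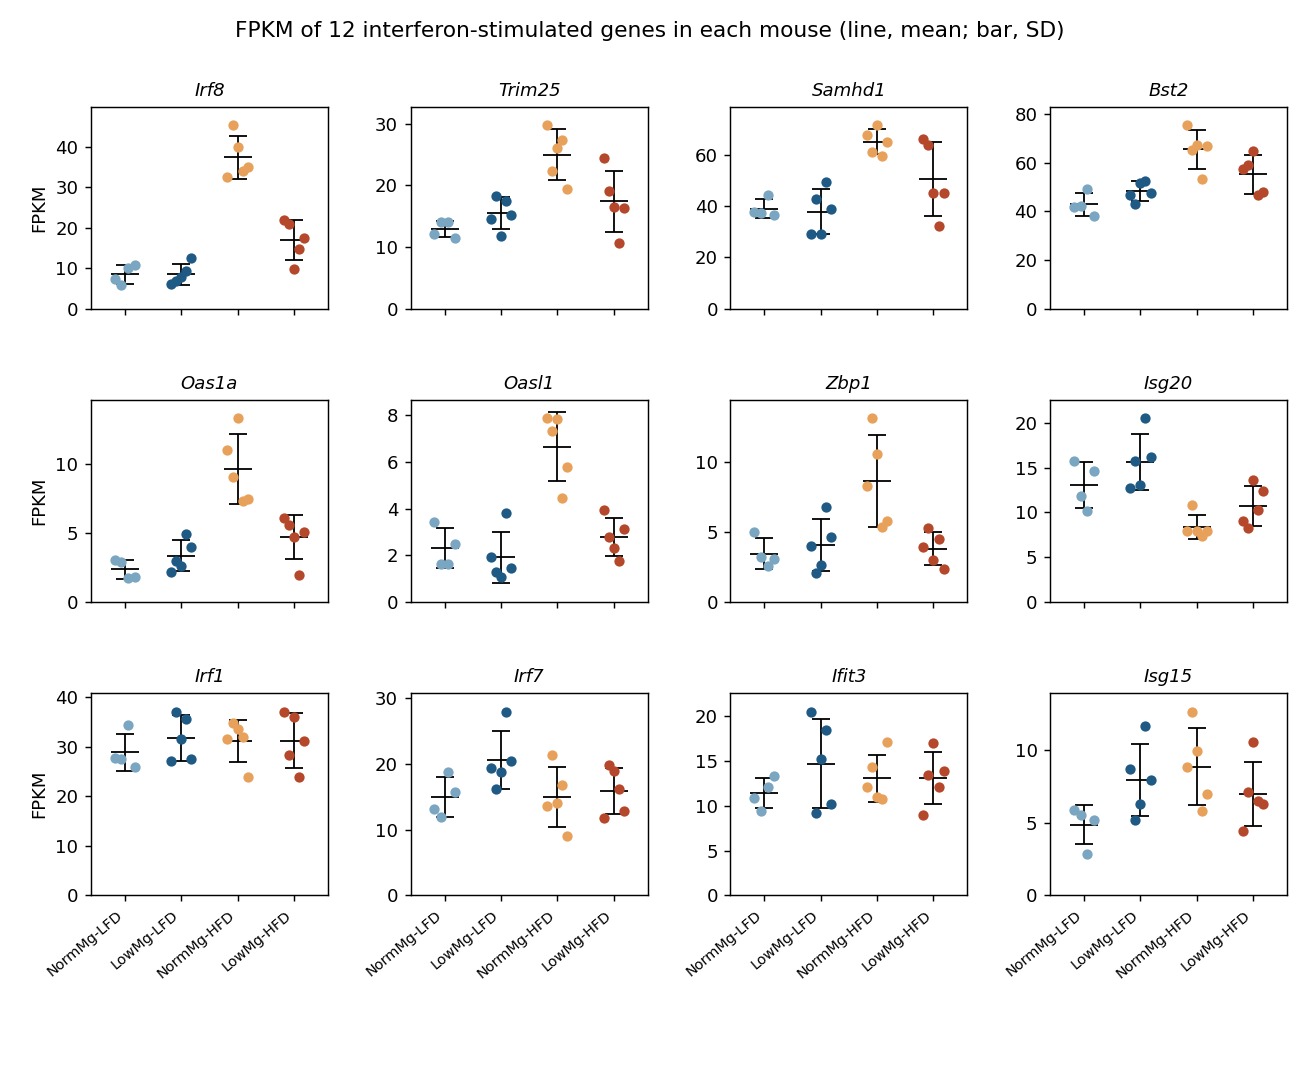
FPKM of 12 members in each mouse by diet group, with points for mice, the horizontal line for the mean and the bar for the SD (n = 4 in NormMg-LFD and 5 in the others). In the upper rows NormMg-HFD has the highest mean of the 4 groups for all but Isg20, where it has the lowest, and in the bottom row Irf1, Irf7, Ifit3 and Isg15 overlap across the groups.

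The interferon-inducible GTPases, which attack pathogen vacuoles, split by gene. Gbp2 lay at 24.96, 23.69, 23.66 and 29.01 FPKM in NormMg-LFD and at 27.13, 42.44, 38.46, 26.57 and 33.99 FPKM in NormMg-HFD. The groups overlapped, and its log2 fold change of 0.38 (SE 0.14, adjusted p = 0.0377 by limma) lost the call in 12 of 29 alternatives. Gbp7 had a log2 fold change of -0.41 (adjusted p = 0.06 by limma) and passed as lower under some alternatives, among them each mouse centred on its median. Gbp3, Igtp, Irgm1 and Iigp1 did not pass. The sensors Ddx58 and Ifih1 and the kinase Eif2ak2, which halts translation on double-stranded RNA, had log2 fold changes of 0.21, -0.09 and 0.09. Ddx58 lay at 12.92, 15.18, 13.30 and 10.80 FPKM in NormMg-LFD and at 16.05, 19.51, 12.44, 12.82 and 16.03 FPKM in NormMg-HFD. Ifit3, which binds foreign RNA, lay at 10.82, 9.42, 12.07 and 13.28 FPKM and at 12.10, 14.27, 10.99, 10.69 and 17.04 FPKM in the same groups, with a log2 fold change of 0.17 (SE 0.21). Both genes overlapped between the groups.

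The members below the filter were fitted with all 14267 genes of a mean over 1 FPKM, where all 41 were tested. There 10 members were higher and 1 lower, against 17.2% and 9.67% of all genes tested. Oas1a, an enzyme that makes the 2′-5′ oligoadenylates that activate RNase L, lay at 3.02, 2.91, 1.74 and 1.82 FPKM in NormMg-LFD and at 11.04, 9.09, 13.33, 7.30 and 7.49 FPKM in NormMg-HFD. Oas1a was higher by 1.65 on the log2 scale (SE 0.25, adjusted p = 6.71e-05 by limma). Oasl1, a family member without that enzyme activity, lay at 3.44, 1.65, 1.63 and 2.48 FPKM and at 7.87, 7.34, 7.83, 4.47 and 5.79 FPKM (log2 fold change 1.23, SE 0.24, adjusted p = 0.000948 by limma). Zbp1, a sensor of Z-form nucleic acid, lay at 5.03, 3.20, 2.55 and 3.08 FPKM and at 8.31, 13.10, 10.53, 5.37 and 5.80 FPKM (log2 fold change 1.07, SE 0.28, adjusted p = 0.00752 by limma). None of these genes overlapped between the groups, and they were chosen for this detail after their values were seen. Oas1a belongs to a cluster of near-identical genes, so the reads assigned to it are uncertain. Oas1g, another gene of that cluster, lay at 0 to 0.95 FPKM in NormMg-LFD and at 2.9 to 6.39 FPKM in NormMg-HFD. Isg15, the ubiquitin-like modifier with the longest run of overlapping ISRE cores shown above, had a log2 fold change of 0.74 (SE 0.25, adjusted p = 0.0305 by limma) and lost the call in 7 of 26 alternatives.

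**Figure D4:**
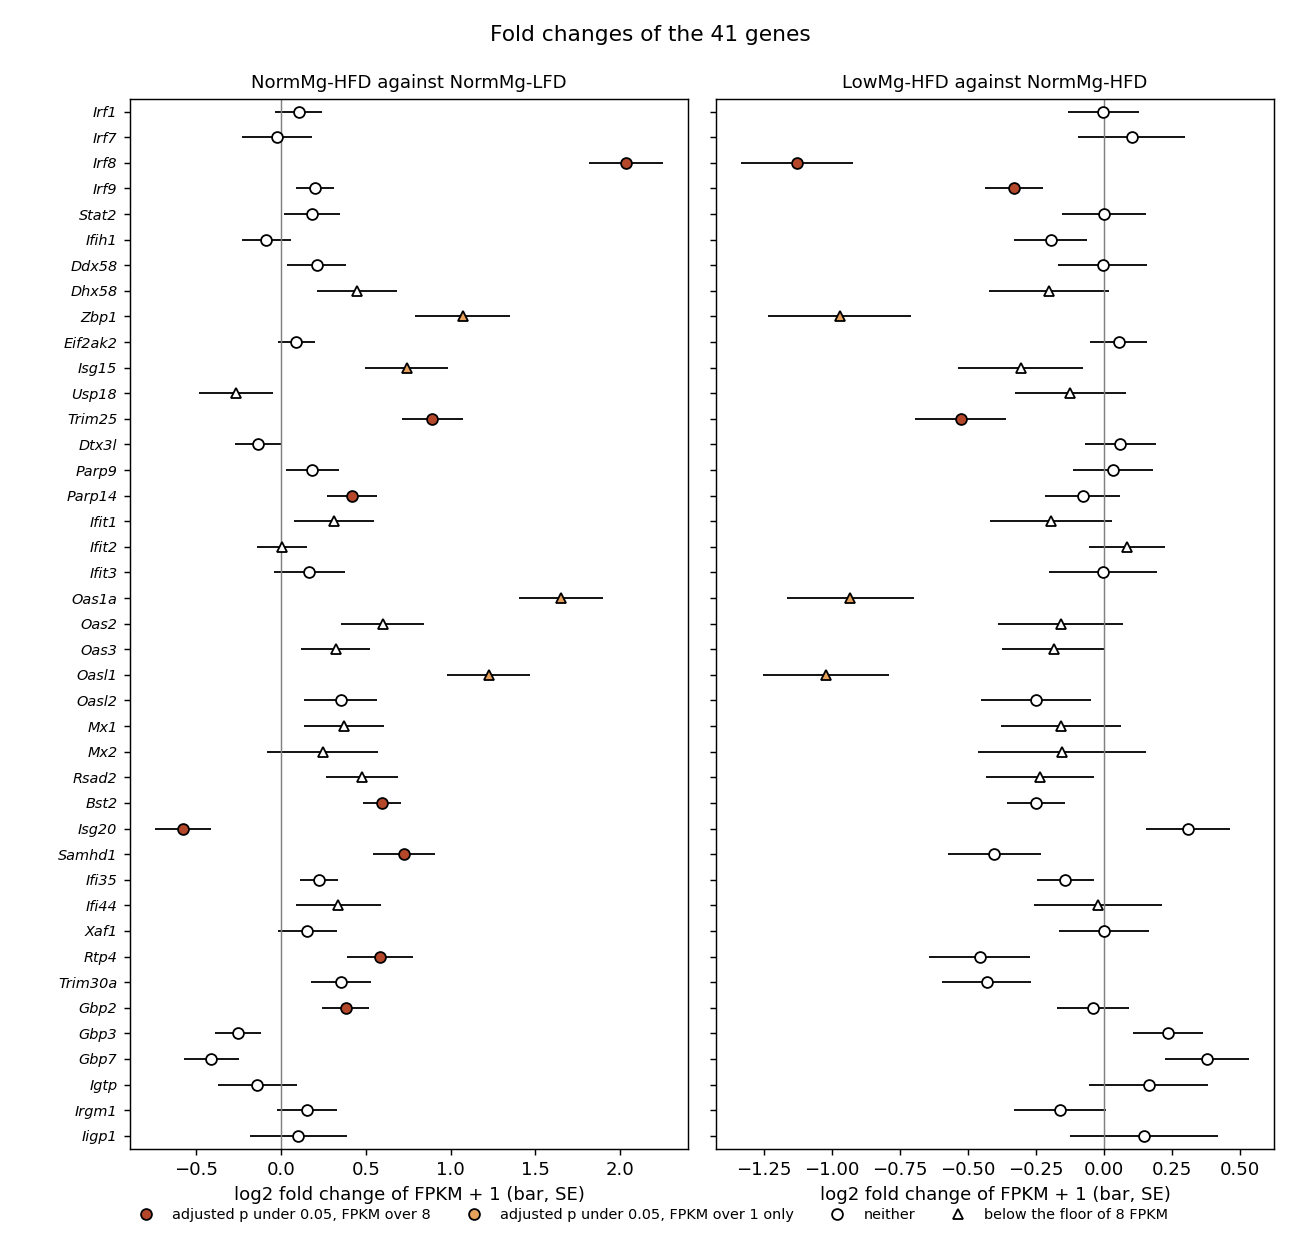
Log2 fold changes of all 41 members with their SE, in the fit of genes over 1 FPKM, for NormMg-HFD against NormMg-LFD (left) and LowMg-HFD against NormMg-HFD (right). Circles are members over 8 FPKM and triangles those below, red marks a call over 8 FPKM and orange a call over 1 FPKM only, and both panels use the same NormMg-HFD mice, so they are not independent.

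The second question is what low magnesium did on the high-fat diet. In LowMg-HFD mice Irf8, Trim25 and Irf9 were lower than in NormMg-HFD, whereas Irf1, Irf7, Stat2, Ifit3 and Xaf1 had log2 fold changes between -0.00 and 0.10. By limma over 8336 genes, 0 of the 27 members tested were higher and 3 were lower, against 5.58% of all genes tested higher and 12.9% lower. The share of members lower is close to that of all genes. The median log2 fold change was -0.00 over the members tested and -0.04 over all genes tested, and 8 of the 27 members had an unadjusted p under 0.05, against 32.4% of all genes tested. This comparison and the first share the NormMg-HFD mice and are not independent. Centring each mouse on its median moved the split of all genes from 465 higher and 1077 lower to 649 and 849.

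Irf8 lay at 21.96, 20.99, 9.94, 14.76 and 17.45 FPKM in LowMg-HFD, below every NormMg-HFD mouse, whose lowest value was 32.47 FPKM. This is a difference of -1.13 on the log2 scale (SE 0.20, adjusted p = 0.0023 by limma), and the adjusted p by limma ranged from 0.000851 to 0.0108 across 29 alternatives. Trim25 lay at 24.45, 19.02, 16.56, 10.71 and 16.30 FPKM in LowMg-HFD, with 1 mouse inside the NormMg-HFD range. Trim25 differed by -0.53 on the log2 scale (SE 0.17, adjusted p = 0.0346 by limma), and it lost the call in 11 of 29 alternatives. Irf9 lay at 12.32, 15.29, 14.96 and 12.06 FPKM in NormMg-LFD. It lay at 15.25, 18, 16.09, 15.18 and 14.45 FPKM in NormMg-HFD and at 11.62, 11.26, 13.36, 12.73 and 12.74 FPKM in LowMg-HFD. These groups did not overlap, but the difference was small, at -0.33 on the log2 scale (SE 0.11, adjusted p = 0.0415 by limma), and the call was lost in 14 of 29 alternatives. Without NormMg-HFD replicate 1, without NormMg-HFD replicate 3, without LowMg-HFD replicate 5, or with each mouse centred on its median, the count of members lower was 1. In the 3 fits that left out a mouse, 9.4%, 8.06% and 9.55% of all genes tested were lower, against 12.9% with all mice. Irf9 and Trim25 both lost the call also without NormMg-HFD replicate 4, without LowMg-HFD replicate 3 and without LowMg-HFD replicate 4. In a fit of 18 mice, without LowMg-HFD replicate 4 and with a floor of 3 on the log2(FPKM + 1) scale, their adjusted p by limma were 0.0542 and 0.0866.

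The other members given by mouse did not pass. Irf1 lay at 37.12, 28.41, 35.94, 23.83 and 31.09 FPKM in LowMg-HFD, inside or around the NormMg-HFD range, with a log2 fold change of -0.00 (SE 0.13). Samhd1 lay at 66.26, 63.68, 45.21, 32.08 and 45.15 FPKM, with replicates 1 and 2 inside the NormMg-HFD range and the other 3 mice below it (log2 fold change -0.40, adjusted p = 0.103 by limma). Bst2 lay at 57.51, 58.94, 65.00, 46.60 and 47.81 FPKM (log2 fold change -0.25, adjusted p = 0.109 by limma). Values of Gbp2 were 33.07, 36.78, 35.10, 28.80 and 28.39 FPKM, those of Ddx58 were 13.35, 16.82, 16.66, 13.54 and 15.63 FPKM, and those of Parp9 were 27.05, 29.30, 22.02, 21.81 and 21.85 FPKM. All 3 genes overlapped NormMg-HFD, with log2 fold changes of -0.04, -0.00 and 0.03. Ifit3 lay at 8.98, 13.45, 16.96, 12.07 and 13.87 FPKM, also overlapping. Oasl2, an oligoadenylate synthetase-like protein, lay at 17.55, 23.55, 12.37, 14.11 and 14.16 FPKM in NormMg-HFD and at 15.01, 12.71, 19.13, 9.67 and 11.43 FPKM in LowMg-HFD (log2 fold change -0.25, SE 0.20). Isg20 lay at 9.05, 8.29, 13.66, 10.31 and 12.36 FPKM, with a log2 fold change of 0.31.

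In the fit of genes over 1 FPKM, 0 members were higher and 4 were lower, against 2.99% and 7.77% of all genes tested. The 4 were Irf8, Oasl1, Oas1a and Zbp1, whereas Trim25 and Irf9 had adjusted p of 0.0511 and 0.0538 by limma there. Oasl1 lay at 3.93, 2.78, 2.30, 1.78 and 3.12 FPKM in LowMg-HFD, all below NormMg-HFD (log2 fold change -1.02, SE 0.23, adjusted p = 0.00867 by limma). Oas1a lay at 6.13, 5.56, 4.71, 1.99 and 5.09 FPKM, also below every NormMg-HFD mouse (log2 fold change -0.93, SE 0.23, adjusted p = 0.0151 by limma). Without NormMg-HFD replicate 3 its adjusted p was 0.0544 by limma. Zbp1 lay at 3.93, 5.29, 2.99, 4.49 and 2.33 FPKM, against a lowest value of 5.37 FPKM in NormMg-HFD (log2 fold change -0.97, SE 0.26, adjusted p = 0.0229 by limma). Its call was lost in 5 of 26 alternatives, each of them without 1 of the high-fat mice. Isg15 overlapped, at 8.88, 12.67, 9.93, 5.84 and 7.01 FPKM in NormMg-HFD and at 4.46, 7.13, 10.55, 6.48 and 6.31 FPKM in LowMg-HFD.

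On the low-fat diet no member passed the test between magnesium levels. By limma 0 of the 27 members tested passed in LowMg-LFD against NormMg-LFD, as for all 8336 genes (0.0%), with 2 members, Irf7 and Rtp4, and 547 genes at an unadjusted p under 0.05. Irf8 lay at 6.10, 6.95, 7.74, 9.31 and 12.46 FPKM in LowMg-LFD, within or around the NormMg-LFD range (log2 fold change -0.01, SE 0.22). Irf7 was 14.9 ± 3.03 FPKM (SD, n = 4) in NormMg-LFD and 20.5 ± 4.42 FPKM (SD, n = 5) in LowMg-LFD, and its log2 fold change of 0.43 had an adjusted p of 0.753 by limma. Rtp4 ranged from 7.12 to 8.82 FPKM and from 9.27 to 17.87 FPKM in the same groups, without overlap, and the highest value was that of LowMg-LFD replicate 4, the mouse with epididymis RNA. Ifit2, below the filter, ranged from 4.03 to 4.84 FPKM in NormMg-LFD and from 2.75 to 3.97 FPKM in LowMg-LFD, also without overlap (log2 fold change -0.28, adjusted p = 0.863 by limma in the fit of genes over 1 FPKM). Isg15 had a log2 fold change of 0.60 in that fit (adjusted p = 0.853 by limma).

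The other members given by mouse also did not pass. In LowMg-LFD Irf1 lay at 27.13, 37.07, 31.57, 35.64 and 27.45 FPKM, Trim25 at 14.51, 18.33, 11.77, 17.52 and 15.18 FPKM and Samhd1 at 29.11, 42.62, 29.30, 49.38 and 38.78 FPKM. Bst2 lay at 46.77, 42.92, 51.79, 52.58 and 47.73 FPKM, Gbp2 at 27.53, 22.36, 28.90, 30.38 and 34.06 FPKM and Parp9 at 19.26, 28.55, 15.24, 22.50 and 16.42 FPKM. Each of these 6 genes overlapped the NormMg-LFD range. Ddx58 lay at 12.89, 10.33, 10.98, 18.90 and 19.43 FPKM and Ifit3 at 20.46, 9.19, 15.16, 18.42 and 10.14 FPKM. Irf9 lay at 11.92, 10.85, 11.28, 16.64 and 11.99 FPKM, and Oasl2 at 12.28, 11.72, 13.19 and 11.95 FPKM in NormMg-LFD and 13.36, 9.26, 6.54, 14.95 and 12.46 FPKM in LowMg-LFD. Replicate 4, the mouse with epididymis RNA, was the highest of LowMg-LFD for Samhd1, Bst2, Irf9 and Oasl2.

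At low magnesium the high-fat diet moved 2 members. In LowMg-HFD against LowMg-LFD 1 of 27 members was higher and 1 lower by limma, against 12.4% of all genes tested higher and 3.51% lower. Irf8 was higher by 0.91 on the log2 scale (SE 0.20, adjusted p = 0.00573 by limma), although the LowMg-HFD mouse at 9.94 FPKM lay inside the LowMg-LFD range. Isg20 lay at 12.75, 15.75, 13.05, 20.49 and 16.19 FPKM in LowMg-LFD and was lower in LowMg-HFD by a log2 fold change of -0.51 (SE 0.16, adjusted p = 0.0327 by limma). Isg20 lost the call without LowMg-LFD replicate 2, 4 or 5 or LowMg-HFD replicate 1 or 2, each of which left a count of 1 member. In those fits 14.1%, 15.6%, 13.7%, 10.5% and 9.67% of all genes tested were called, in the order named. Without LowMg-HFD replicate 3, 4 members passed, Gbp3 and Rtp4 among them as lower. In that fit 12.7% of all genes tested were higher and 4.13% lower. Centring each mouse on its median moved the split of all genes from 1036 higher and 293 lower to 593 and 531. Trim25, Samhd1 and Bst2, which rose with fat at normal magnesium, had log2 fold changes of 0.13, 0.39 and 0.18 here and did not pass.

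Whether the magnesium difference itself depended on fat was tested by the interaction. By limma 0 of 27 members passed, against 1.25% of all genes tested, and 4 members, Irf8, Rtp4, Trim25 and Bst2, had an unadjusted p under 0.05, against 20.4% of all genes tested. Irf8 had an interaction of -1.12 (SE 0.30, adjusted p = 0.0551 by limma), Rtp4 of -0.93 (SE 0.27, adjusted p = 0.0709 by limma) and Trim25 of -0.76 (SE 0.24, adjusted p = 0.0905 by limma). Irf8 passed when each mouse was centred on its median or the values were quantile normalised, and without LowMg-LFD replicate 1, NormMg-HFD replicate 5, LowMg-HFD replicate 1 or LowMg-HFD replicate 2. In the fits that each left out 1 of these mice, 2.5%, 3.98%, 5.34% and 5.83% of all genes tested passed, in the order named. Trim25 passed with Irf8 without LowMg-HFD replicate 1, which gave a count of 2. An effect of magnesium that differs between the fat levels is therefore not shown for these genes at 8 FPKM with values as deposited.

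The 2 libraries that stood apart changed part of these counts. Without NormMg-LFD replicate 3, 5 members were higher and 2 lower in NormMg-HFD against NormMg-LFD, against 20.5% and 10.8% of all genes in that fit. Gbp2 and Parp14 were no longer called there, and Gbp7 was called as lower. The 3 members lower in LowMg-HFD against NormMg-HFD were still 3, against 12.3% of all genes lower in that fit. Without LowMg-LFD replicate 4, 1 member passed in LowMg-HFD against LowMg-LFD in place of 2, against 15.6% of all genes in that fit. In the interaction the share of all genes passing was 0.0% without NormMg-LFD replicate 3 and 0.0724% without LowMg-LFD replicate 4, and no member passed in either fit. Irf8 passed in its 3 comparisons without either.

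The mean log2(FPKM + 1) over the 41 members was 3.19 ± 0.06 (SD, n = 4) in NormMg-LFD, 3.30 ± 0.18 (SD, n = 5) in LowMg-LFD, 3.54 ± 0.17 (SD, n = 5) in NormMg-HFD and 3.35 ± 0.15 (SD, n = 5) in LowMg-HFD. The 41 include 14 members below the filter, whereas all genes tested passed it. The mean over the 27 members tested was 3.90, 4.01, 4.14 and 4.04 in the same order of groups. The mean over all genes tested was 4.65, 4.59, 4.78 and 4.72 in that order. Single mice stood out across many members. LowMg-LFD replicate 4 had the highest value of its group in 26 of the 41 members (63.4%), against 31.2% of all genes tested, and NormMg-HFD replicate 2 in 24 (58.5%), against 21.9%. LowMg-HFD replicate 3 was highest in 20 members (48.8%, against 18.8%), although its Irf8, at 9.94 FPKM, was the lowest of that group. LowMg-HFD replicate 4 was lowest in 21 members (51.2%), against 30.2% of all genes tested, NormMg-HFD replicate 4 in 18 (43.9%), against 13.8%, and LowMg-LFD replicate 2 in 14 (34.1%), against 14.4%. NormMg-LFD replicate 4 was highest in 20 members (48.8%), against 50.6% of all genes tested.

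**Figure D5:**
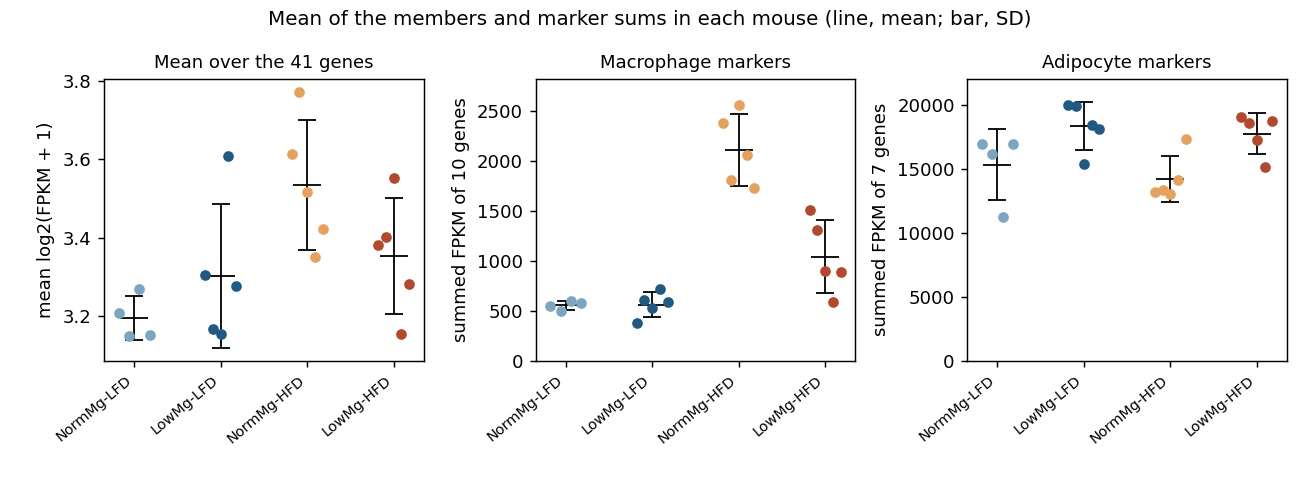
Left, the mean log2(FPKM + 1) over the 41 members in each mouse, on an axis that does not start at 0. Middle and right, the summed FPKM of 10 macrophage markers and of 7 adipocyte markers, with points for mice, lines for means and bars for the SD: the macrophage sums of all NormMg-HFD mice, from 1728 to 2569, lie above those of every other mouse.

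Macrophage markers also differed between the groups. The summed FPKM of 10 macrophage markers was 499 to 598 in NormMg-LFD, 378 to 717 in LowMg-LFD, 1728 to 2569 in NormMg-HFD and 590 to 1507 in LowMg-HFD, and 8 of the 10 were called higher and 1 lower in NormMg-HFD against NormMg-LFD. In LowMg-HFD against NormMg-HFD 8 were lower and 0 higher, and in LowMg-HFD against LowMg-LFD 5 were higher and 0 lower. The part of these cells in the changes of Irf8, Trim25, Samhd1, Oas1a, Oasl1 and Zbp1 was not tested, and in whole tissue fewer cells of a type and less RNA per cell cannot be told apart. Of 7 adipocyte markers 1 was called higher and 4 lower in NormMg-HFD against NormMg-LFD, and 4 higher and 0 lower in LowMg-HFD against NormMg-HFD, with summed means of 15300 FPKM in NormMg-LFD, 18400 in LowMg-LFD, 14200 in NormMg-HFD and 17800 in LowMg-HFD. Neutrophil markers summed to 19.68 to 140.3 FPKM in NormMg-HFD and to 4.04 to 19.49 FPKM in the other groups, with Ly6g at 0 in every mouse of those groups. Plasmacytoid dendritic cell markers, of cells that make much type I interferon, summed to at most 9.93 FPKM outside NormMg-LFD. In that group they reached 22.67 FPKM, in the library with pancreas RNA. T cell, natural killer cell and B cell markers summed to at most 33.48, 9 and 20.28 FPKM. Conventional dendritic cell markers overlapped, at 16.45 to 22.09 FPKM in NormMg-LFD, 12.47 to 21.1 in NormMg-HFD and 15.76 to 22.96 in LowMg-HFD. Summed means in NormMg-LFD, LowMg-LFD, NormMg-HFD and LowMg-HFD were 200, 191, 193 and 223 FPKM for endothelial markers. For fibroblast and progenitor markers they were 892, 798, 1000 and 818 FPKM.

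The rest of the pathway was read from lists of its genes, whose counts stand against 24.6% of all genes tested higher in NormMg-HFD against NormMg-LFD and 12.9% lower in LowMg-HFD against NormMg-HFD. Of 21 interferon ligand genes 4 were in the table, Ifng, Ifnk, Ifnl3 and Ifnz, and none was above 0.58 FPKM in any mouse. The other ligand genes were not analysed here. Of the 5 receptor genes tested, 4 rose in NormMg-HFD against NormMg-LFD and 3 fell in LowMg-HFD against NormMg-HFD. The 3 were Ifnar1, a chain of the type I receptor (log2 fold change -0.41, adjusted p = 0.0119 by limma), Ifngr2, a chain of the interferon gamma receptor (-0.64, adjusted p = 0.0342 by limma), and Il10rb, shared by the receptors of interferon lambda and interleukin 10 (-0.61, adjusted p = 0.00767 by limma). In the fit of genes over 1 FPKM Ifngr2 had an adjusted p of 0.0511 by limma and lost the call. Of 8 signalling genes of the JAK-STAT list tested, 5 rose with fat at normal magnesium, and Jak1 (-0.26) and Ptpn6 (-0.94), a phosphatase of blood cells, fell with low magnesium on the high-fat diet, where 1 of the 2 passed once each mouse was centred on its median. Among 3 further IRF genes tested, Irf5, a factor of inflammatory macrophages, was called in both comparisons, higher by 0.67 with fat and changed by -0.50 with low magnesium. Of 8 sensing and adaptor genes tested, 6 rose and 1 fell with fat at normal magnesium, and Tmem173 (-0.50), which encodes STING, and Ikbke (-0.78) fell with low magnesium on the high-fat diet. Tmem173 lost the call in the fit of genes over 1 FPKM (adjusted p = 0.0535 by limma), as did Jak1.

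Of the other interferon-stimulated genes outside the 41, 33 were tested. In NormMg-HFD against NormMg-LFD 11 were higher and 1 lower, against 24.6% and 12.8% of all genes tested, and in LowMg-HFD against NormMg-HFD 1 was higher and 3 lower, against 5.58% and 12.9%. Slfn2 passed the interaction (-1.31, SE 0.29, adjusted p = 0.0447 by limma) and lost the call without NormMg-LFD replicate 3, where 0 genes passed, and in the fit of genes over 1 FPKM (adjusted p = 0.0623 by limma). Ifi30 and Ifi204 had interactions of -1.33 and -0.78 (adjusted p = 0.0519 and 0.0551 by limma) and passed once each mouse was centred on its median. Ifi30, a lysosomal thiol reductase of antigen-presenting cells, lay at 97.49 to 147.95 FPKM in NormMg-HFD and at 32.84 to 63 FPKM in LowMg-HFD (log2 fold change -1.37, adjusted p = 0.00178 by limma). Slfn2 lay at 24.06 to 41.24 FPKM and at 9.1 to 22.3 FPKM (log2 fold change -1.06, adjusted p = 0.00259 by limma), and Ifi204 had a log2 fold change of -0.67. Tdrd7 was higher by 0.38 (adjusted p = 0.0132 by limma). The groups did not overlap for Ifi30, Slfn2 or Ifi204. On the low-fat diet 0 genes of these lists passed between magnesium levels.

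The promoter matches were also set against the calls in the fit of genes over 1 FPKM, in which all 41 members were tested. Among members with a promoter sequence, an ISRE core stood in 3 of 8 called in any comparison (Bst2, Isg15 and Oas1a) and in 14 of 23 not called. A GAS match stood in 5 of the 8 (Bst2, Irf8, Isg20, Oas1a and Samhd1) and in 6 of the 23. These counts are small and are given as a description.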

How the data were processed

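FPKM was deposited by the authors for each gene and mouse, and these values were used as deposited. Per the labels and the study's methods, RNA of epididymal fat was sequenced at BGI, and reads were mapped to the GRCm38 (mm10) transcriptome with HISAT and Bowtie2 and quantified with RSEM 1.2.31. Total read counts and the percent of reads mapped were deposited by the authors for each library. FPKM does not give the reads behind each value, so how precisely low members were counted is unknown. Near-identical genes, such as those of the Oas1, Ifit3, Gbp and Irgm families, can share reads of this length, and their values are uncertain. Of 24238 gene lines, 24237 were used, 1 having a cell that is not a number, and 26 symbols that had been turned into dates were restored.

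The fit was limma 3.58.1 (R 4.3.3) on log2(FPKM + 1) with a trend of the variance with expression, all 4 groups together, and Benjamini-Hochberg adjustment over the 8336 genes that passed a filter of 8 FPKM, at a threshold of 0.05. A fold change on this scale understates that of low genes. P-values rest on the spread between the mice. The script was tested on simulated data. The 41 members, role groups, pathway lists and marker lists were chosen with earlier results of these data known. Values per mouse are given for the member of highest mean FPKM in each role group, and for the 3 members with the largest change in each direction among those called in a comparison of 2 groups. Oas1a, Oasl1, Zbp1, Isg15, Rtp4, Parp14, Gbp7, Gbp3, Irf7 and further members named for their fold changes were picked after their values were seen. Alternatives were another pseudocount, filter, scaling, trend or set of mice. Python 3.11.15, pandas 2.3.3 and matplotlib 3.10.9 were used for the summaries and figures.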

Additional observations from a re-analysis of the deposited data

Results flagged for a closer look

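Gaps within groups were looked at in 76 groups of 19 members and in 52 groups of 13 marker lists, and a sample is given here where its distance to the nearest other mouse took up most of the range of its group by Dixon's criterion. Chance gives about 1 in 20 groups. There were 4 such values among the members and 11 among the marker lists. Among the members they were Irf9 in LowMg-LFD replicate 4 at 16.64 FPKM (next highest 11.99), Samhd1 in NormMg-LFD replicate 4 at 44.34 FPKM (next 37.54), Parp14 in the same mouse at 10.85 FPKM (next 9.12) and Isg20 in NormMg-HFD replicate 2 at 10.82 FPKM (next 7.94). The Irf9 value belongs to the mouse with epididymis RNA, and its part in that value was not tested.

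Among the marker sums, exocrine pancreas reached 1707.4 FPKM in NormMg-LFD replicate 3 and epididymis 121.67 FPKM in LowMg-LFD replicate 4, with 1.72 FPKM in LowMg-HFD replicate 4. Neutrophil markers summed to 140.29 FPKM in NormMg-HFD replicate 3. T cell markers stood at 33.48 FPKM and plasmacytoid dendritic cell markers at 9.93 FPKM in NormMg-HFD replicate 2, and T cell markers at 19.55 FPKM in LowMg-LFD replicate 5. Siglech, a defining marker of plasmacytoid dendritic cells, lay at 0.21 to 1 FPKM in NormMg-HFD and at 1.14 to 2.07 FPKM in NormMg-LFD. The defining markers Ccr9 and Spib overlapped between these groups. B cell markers stood at 13.76 FPKM in LowMg-HFD replicate 3. In NormMg-LFD replicate 4 the adipocyte sum was low, at 11252.94 FPKM, and the endothelial sum high, at 233.29 FPKM. The adipocyte sum of NormMg-HFD replicate 5 was high, at 17324.74 FPKM.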

How the results depend on the processing

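The count of members called was 3 in LowMg-HFD against NormMg-HFD and fell to 1 after median centring of the mice. It was 3 in the fit of 18 mice, with 1 member higher (Gbp7) and 2 lower (Irf8 and Oas1a). It was 2 in LowMg-HFD against LowMg-LFD and 1 with no filter, with only the groups compared in the fit, or without NormMg-LFD replicate 3 and LowMg-LFD replicate 4 together, an alternative chosen after seeing the data. The interaction count was 0 and became 1 after median centring and 1 after quantile normalization. Except for the centred splits given above, the shares of all genes called in these alternative fits are not given here. A change in these counts is therefore not read as particular to the members. With each mouse left out in turn, the counts lay between 1 and 4 for LowMg-HFD against NormMg-HFD, between 6 and 10 for NormMg-HFD against NormMg-LFD, between 1 and 4 for LowMg-HFD against LowMg-LFD, between 0 and 2 for the interaction, and at 0 for LowMg-LFD against NormMg-LFD. In the same fits 11.3% to 19.8%, 31.4% to 39.5%, 9.67% to 17.7%, 0.0% to 5.83% and 0.0% of all genes tested were called in these comparisons, in that order. The cause of these changes was not tested.

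For 20 calls of single members, 559 values under alternatives kept the direction in every case, 487 passed the threshold and 72 did not. Those of Oas1a, Oasl1, Zbp1 and Isg15 come from the fit with no filter and from that of genes over 1 FPKM with a second choice changed, the latter chosen after seeing the data. With the replicate number as a replicate block the counts were 3, 0, 8, 2 and 0 in the 5 comparisons, as without it. The shares of all genes called with the block are not given here. The 27 same-number pairs had correlated deviations from -0.18 to 0.34, with 5 over 0.1. Pairs of different numbers were not looked at, so whether the numbers pair the mice cannot be told from these values. Quantile normalization, and leaving out NormMg-HFD replicate 2 or LowMg-HFD replicate 4, made Gbp7 higher in LowMg-HFD against NormMg-HFD. Members at a few FPKM rest on few reads, and no read counts per gene were used here.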
